A study of Homo sapiens with 5 samples.

Results

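The Hippo kinase cascade was examined for binding of TEAD4, the transcription factor through which the pathway's coactivators act. The genes were 10 listed members of the cascade and its upstream regulators, out of 20033 protein-coding genes on chromosomes 1 to 22, X and Y: STK3, STK4 and SAV1, LATS1 and LATS2, MOB1A and MOB1B, NF2, WWC1 and AMOTL1. A TEAD4 peak was assigned to a gene when its summit lay in the gene body or within 50 kb of any transcription start site (TSS) of the gene in GENCODE release 44, on the hg38 genome build used throughout. This gave 44 of the 21113 peaks.

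The peaks came from chromatin immunoprecipitation followed by sequencing (ChIP-seq) in LX-2, an established human hepatic stellate cell line used as a model of the myofibroblasts that scar the liver. All cells had received only the solvent DMSO. There were 3 TEAD4 immunoprecipitations and 2 input samples, and the deposited list combines TEAD4 replicates 1 and 3. It gives each peak 1 signal value and no value per replicate, so no spread between replicates could be given, the depth per sample is unknown, and with 1 condition there was no comparison between groups to test. Expression was not analysed here, so neither the stellate cell identity of the line nor the level of any gene could be checked.

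In the Hippo pathway, the kinases STK3 and STK4, held by the scaffold SAV1, phosphorylate the kinases LATS1 and LATS2 and their cofactors MOB1A and MOB1B. Active LATS kinases phosphorylate the coactivators YAP1 and WWTR1 (TAZ), which are then kept in the cytoplasm or degraded. When the cascade is quiet, both enter the nucleus and bind TEAD factors, which carry them to DNA. NF2 (merlin) and WWC1 (KIBRA) promote the cascade at the cell cortex, and AMOTL1, an angiomotin family protein, binds the coactivators at cell junctions. In other cell types YAP1 and TEAD are known to raise transcription of inhibitors of their own pathway, among them LATS2, NF2 and AMOTL2, and TEAD4 peaks at the cascade genes are therefore of interest as possible sites of such feedback.

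At least 1 peak was found at 8 of the 10 genes, and none at LATS1 or MOB1A. By the same rule 56.2% of all protein-coding genes had a peak. The median was 4.5 peaks per gene for the 10 genes and 1 for all protein-coding genes. The cascade genes are long, and a longer region can hold more peaks: the length searched had a median of 157.6 kb for them and 112.4 kb for all protein-coding genes. When protein-coding genes were split into quartiles of this length, 5 of the 10 fell in the longest, in which 69.0% of genes had a peak, 4 in the next (58.7%) and MOB1A in the shortest (42.7%). Counted per 100 kb searched, the median was 2.00 peaks for the 10 genes and 0.666 for all protein-coding genes. LATS2 had the highest density, 4.33 peaks per 100 kb (percentile 97.5 of protein-coding genes), followed by STK4 with 4.05 (percentile 97.1), SAV1 with 3.24 (percentile 94.1), WWC1 with 2.90 (percentile 91.2), NF2 with 2.07 (percentile 86.1), AMOTL1 with 1.94 (percentile 81.4), STK3 with 1.37 (percentile 73.0) and MOB1B with 0.588 (percentile 48.4). The second place of STK4 rested on 3 peaks nearer to other protein-coding genes: without them it had 2.53 per 100 kb, below SAV1 and WWC1, whose peaks all had the gene itself as the nearest. The place of NF2 counted 2 overlapping peaks separately. With overlapping peaks merged NF2 had 2 peaks in place of 3, which puts it below AMOTL1 and lowers the median density of the 10 genes. These are descriptions of 1 list of peaks, and no test was made of the 10 genes as a set.

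**Figure D1:**
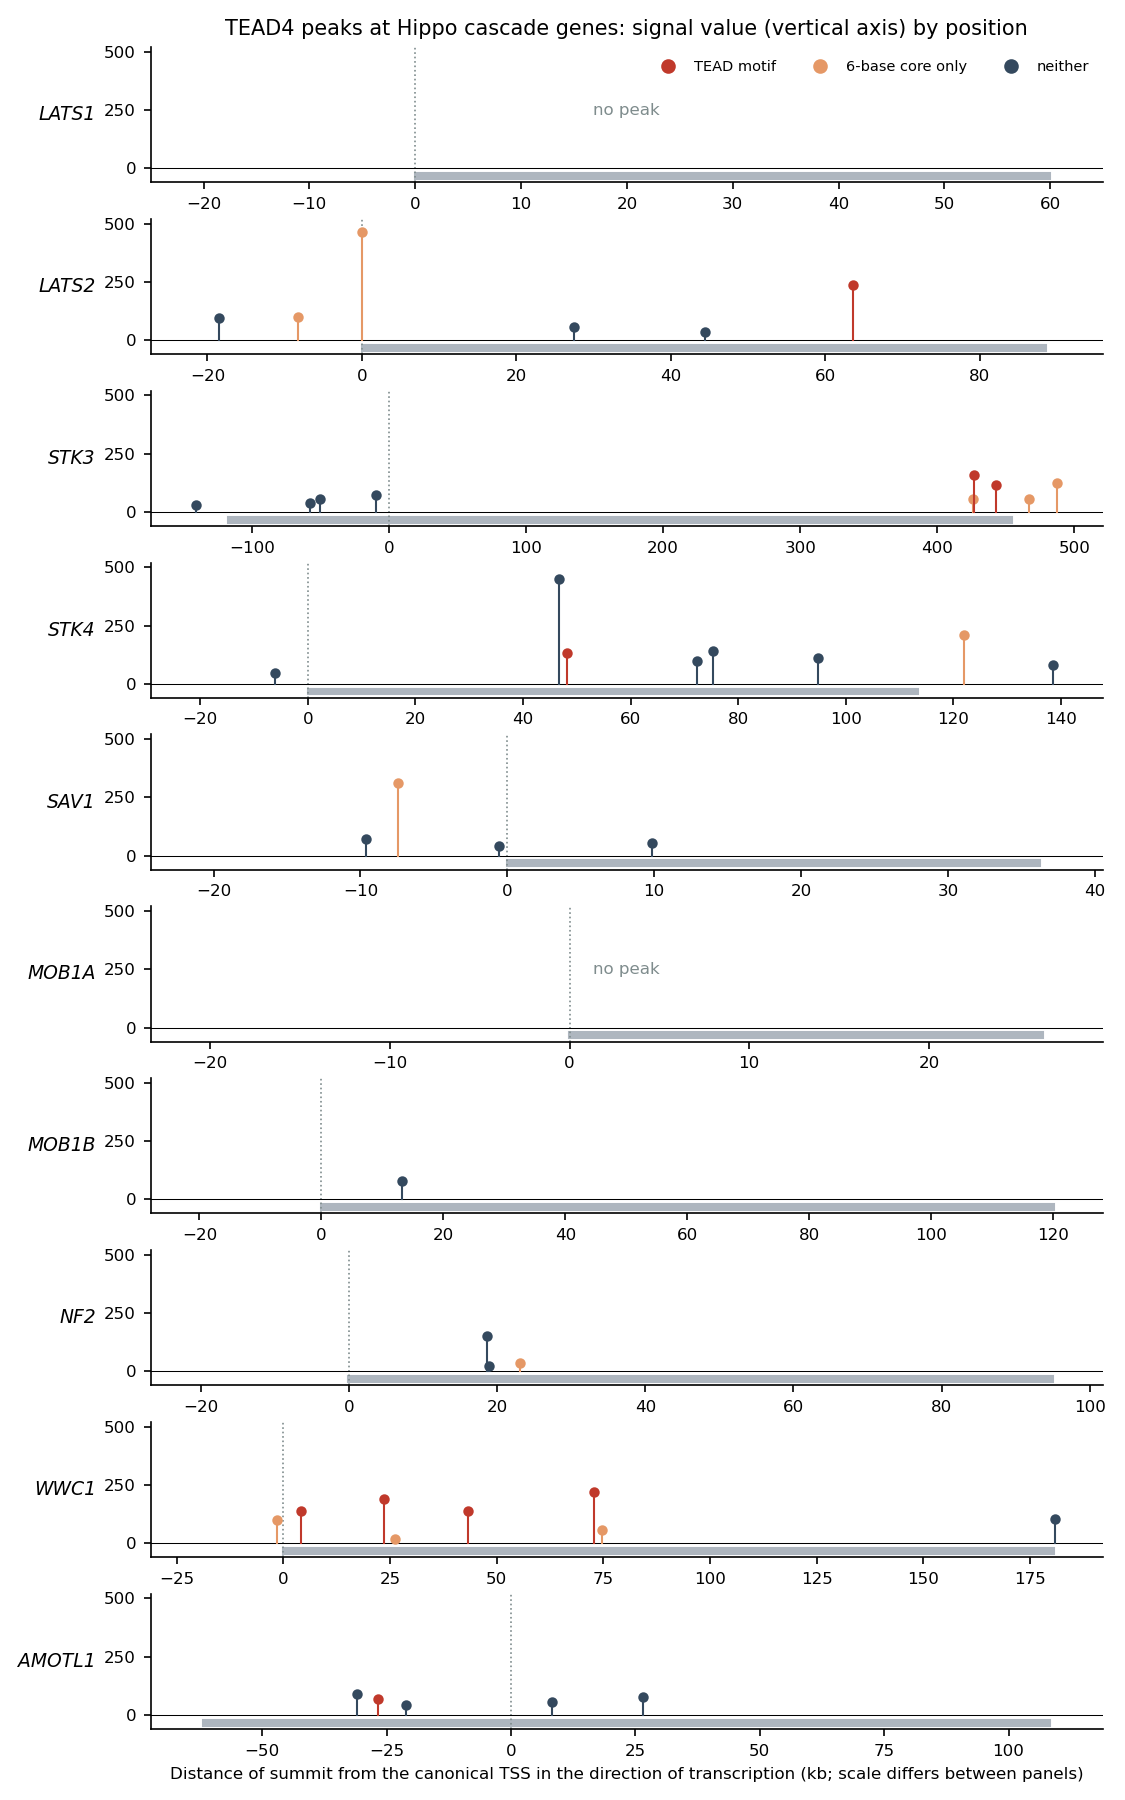
Position and signal value of all 44 TEAD4 peaks at the 10 genes. Each panel is a gene; the horizontal axis is the distance of the summit from the TSS of the canonical transcript in the direction of transcription (kb, with its own scale in each panel), the vertical axis is the signal value, grey bars are gene bodies, dotted lines the canonical TSS, and colours show a TEAD motif, its 6-base core only, or neither within 100 bp of the summit. The tallest stem at LATS2 stands at its TSS, those of STK4 and SAV1 stand 46.7 kb inside and 7.46 kb upstream, and LATS1 and MOB1A are empty.

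LATS2, which encodes the kinase that phosphorylates YAP1 and WWTR1, carried the strongest peak of the group, directly at its promoter. This peak (chr13:21061399-21061796) covered the TSS at position 21061586, with its summit 5 bp upstream of it. Its signal value of 462.3 ranked 190 of 21113 peaks (percentile 99.1), and it was the only one of the 44 peaks that covered a TSS of its gene. A summit within 1 kb of a TSS was present at 2466 protein-coding genes, and by the signal value of that summit LATS2 ranked 23. The other 5 peaks had signal values of 236.0, 98.5, 95.9, 55.6 and 35.8. All 6 had LATS2 as the protein-coding gene with the nearest TSS. The weakest of them also lay in an intron of the antisense lncRNA LATS2-AS1. The second strongest (chr13:20997761-20998093) lay 63.6 kb inside the gene, in an intron, and was in the upper 10% of the list (percentile 93.6). Its summit was 25171 bp from the nearest TSS of LATS2 and 7199 bp from a TSS of LATS2-AS1.

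The sequences at these LATS2 summits show how they differ. The TEAD motif ACATTCC, searched on both strands within 100 bp of a summit, was present at the intronic peak, with its centre 12 bp from the summit. It was absent at the promoter, where only the 6-base core CATTCC was found, in the first exon (5′ untranslated region) at chr13:21061572-21061577. Bases are given on the plus strand of hg38, 5′ to 3′, while LATS2 is transcribed from the minus strand. Capitals mark the motif or the core. The promoter stretch is the part of the summit window upstream of the TSS (chr13:21061587-21061691), and it holds no match. The stretch labelled first exon runs past the TSS at 21061586 to 21061589, so its last bases are also the first of the promoter stretch.

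LATS2 promoter, upstream of the TSS: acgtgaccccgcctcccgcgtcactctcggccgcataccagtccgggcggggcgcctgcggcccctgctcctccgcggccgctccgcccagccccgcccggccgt
LATS2 first exon, core site (chr13:21061560-21061589): ctacattgttggCATTCCacgggcgtcacg
LATS2 intron (chr13:20997928-20997988): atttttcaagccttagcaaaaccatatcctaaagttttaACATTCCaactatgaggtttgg

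In the window of 100 bp to either side of the summit, GC content was 72.6% at the promoter and 45.8% at the intronic peak. In the RefSeq promoter table (GRCh38.p14), 2.96% of 35116 promoters held ACATTCC in the 250 bases before the start, 11.9% held the core and 4.20% the AP-1 motif, TGACTCA on one strand and thus TGAGTCA on the other. None of the promoters listed there for LATS1, LATS2, STK4, SAV1, MOB1A, MOB1B, NF2, WWC1 and AMOTL1 held any of the 3 in those 250 bases.

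LATS1, the paralogue of LATS2 with the same role in the cascade, had no peak. The summit closest to any of its TSSs was 65.6 kb away, had a signal value of 72.2 and lay nearest to KATNA1. For all protein-coding genes the closest summit was a median of 39.5 kb from a TSS, so this distance was not extreme (percentile 61.6). Both promoters were rich in CpG: the ratio of observed to expected CpG within 500 bp of the canonical TSS was 0.829 at LATS1 and 0.867 at LATS2. A ratio above 0.6 was found for all 10 genes and for 66.3% of protein-coding genes, so CpG-rich promoters with and without TEAD4 peaks occurred side by side within the cascade.

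The cofactors of the LATS kinases had the fewest peaks of the paralogous pairs. MOB1A had none, and its closest summit was 242.8 kb from a TSS (percentile 89.3). MOB1B had 1 peak, in an intron 13.2 kb from its nearest TSS, with a signal value of 81.0 (percentile 59.7) and neither motif.

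STK4 and STK3 encode the kinases at the head of the cascade, and both had several peaks, of different strength. STK4 had 8, with signal values of 447.8, 211.4, 140.6, 132.6, 110.7, 98.9, 82.8 and 46.7. All but the last exceeded the median of the whole list, 68.1. The strongest (chr20:45012996-45013405, rank 206, percentile 99.0) lay in an intron 46.7 kb from the canonical TSS and 26.0 kb from the nearest annotated one, and a peak of 132.6 followed 1595 bp further on. These neighbours differed in sequence: the weaker one had the TEAD motif 5 bp from its summit, and the stronger one had neither the motif nor its core within 100 bp. They are shown for that contrast, with the motif in capitals.

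STK4 intron, strongest peak (chr20:45013077-45013277): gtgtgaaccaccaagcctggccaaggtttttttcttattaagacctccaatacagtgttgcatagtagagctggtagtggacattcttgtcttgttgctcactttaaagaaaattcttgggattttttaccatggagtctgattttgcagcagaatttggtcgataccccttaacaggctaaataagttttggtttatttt
STK4 intron, next peak (chr20:45014742-45014802): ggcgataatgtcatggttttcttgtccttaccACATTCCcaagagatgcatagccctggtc

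Of the 8 peaks at STK4, 3 lay outside the gene and nearer to a TSS of another protein-coding gene. The peak of 46.7 was 20 bp from a TSS of TOMM34, a mitochondrial import factor, and 6077 bp from the nearest TSS of STK4. The peaks of 211.4 and 82.8, downstream of STK4, were 12588 and 3938 bp from a TSS of KCNS1, a potassium channel subunit. Without these, 5 peaks were left, all in introns, including the strongest.

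STK3 had 9 peaks, the most of the group, over the longest region (654.6 kb). Their signal values were 159.8, 124.4, 114.2, 73.2, 57.3, 54.2, 54.1, 39.7 and 29.8, so its strongest peak was weaker than those of STK4, SAV1, WWC1 and LATS2. The peaks formed groups at either end of the gene, with 435.3 kb free of peaks between them. At the 3′ end, 5 peaks stood in and behind the last part of the gene, 425.8 to 487.3 kb from the canonical TSS and 5499 to 49865 bp from the nearest annotated TSS of the gene. Both peaks with the TEAD motif at this gene (159.8 and 114.2) were among these 5. At the 5′ end, 4 peaks lay upstream of the canonical TSS, one of them 474 bp from the start of a longer transcript, in an exon. The peak of 29.8 was nearer to OSR2 and the peak of 124.4 nearer to NIPAL2 than to STK3. With 1 TSS per gene, 6 peaks were assigned to STK3.

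SAV1, the scaffold that holds STK3 and STK4 with the LATS kinases, had 4 peaks with signal values of 313.9, 71.6, 54.7 and 43.7. The strongest (percentile 96.9) lay 7.46 kb upstream of the TSS and was the third strongest of the group. It had only the core of the motif, 42.5 bp from the summit. The weakest lay 588 bp upstream of the TSS, in an exon of an unnamed lncRNA gene. No peak of SAV1 had the full motif within 100 bp. None of the 3 strongest peaks of the cascade genes, at LATS2, STK4 and SAV1, had ACATTCC there.

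Among the upstream regulators, WWC1 had the most peaks with the TEAD motif. Its 8 peaks had signal values of 219.7, 188.2, 139.9, 137.2, 105.8, 98.6, 55.7 and 18.5, and all 8 had WWC1 as the nearest protein-coding gene. The motif was found at 4 of them, which were its 4 strongest, against 5 of the 36 peaks at the other genes and 22.97% of all peaks. WWC1 also had more peaks than NF2 and AMOTL1, and the difference in motif share was not tested. All 4 peaks with the motif were intronic, 4.05, 23.5, 43.3 and 72.8 kb from the canonical TSS, with the motif centred 8, 21, 22 and 26 bp from the summit. The core was also present at 3 more, so 7 of the 8 held CATTCC. Summits of 3 peaks lay within 2.5 kb of a WWC1 TSS, of which only that of 98.6 was near the canonical TSS (1.55 kb upstream). The others lay near starts of other transcripts inside the gene. The motif windows of WWC1 are given with the motif in capitals. It lies on the plus strand (ACATTCC) in the first pair and on the minus strand (GGAATGT) in the second.

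WWC1 intron, 137.2 (chr5:168295664-168295724): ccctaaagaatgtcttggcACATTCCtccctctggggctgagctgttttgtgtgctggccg
WWC1 intron, 188.2 (chr5:168315082-168315142): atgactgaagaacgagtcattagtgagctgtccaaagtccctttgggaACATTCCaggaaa
WWC1 intron, 139.9 (chr5:168334923-168334983): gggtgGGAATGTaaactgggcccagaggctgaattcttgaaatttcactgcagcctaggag
WWC1 intron, 219.7 (chr5:168364428-168364488): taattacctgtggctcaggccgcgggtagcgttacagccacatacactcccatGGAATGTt

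NF2, the tumour suppressor merlin, had 3 peaks, all in introns, with summits 18317, 18518 and 22680 bp from the nearest TSS. Their signal values, in that order, were 150.3, 21.3 and 34.5, and the strongest (chr22:29622122-29622534) was at percentile 84.5 of the list. The weakest shared the start of the strongest, with a summit 0.201 kb away, so NF2 had 2 separate bound regions. None had the full motif within 100 bp. The strongest NF2 peak is shown as one without motif or core.

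NF2 intron (chr22:29622286-29622346): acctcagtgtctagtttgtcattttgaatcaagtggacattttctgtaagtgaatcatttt

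AMOTL1 had 5 peaks of moderate strength, with signal values of 91.0, 76.5, 68.2, 55.0 and 42.7. The highest was at percentile 65.5, and no other gene with more than 1 peak had so low a maximum. All 5 lay in introns, 3 of them between 21.0 and 30.9 kb upstream of the canonical TSS and inside longer transcripts, where the lncRNA PIWIL4-AS1 had a nearer TSS. One of these, with a signal value of 68.2 and a width of 111 bp, had the motif 3 bp from its summit. It is shown after the strongest, which has neither motif nor core in the window.

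AMOTL1 intron, 91.0 (chr11:94737447-94737507): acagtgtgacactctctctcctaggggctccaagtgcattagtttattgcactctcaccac
AMOTL1 intron (chr11:94741519-94741579): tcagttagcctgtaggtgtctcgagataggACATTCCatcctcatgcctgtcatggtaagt

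**Figure D2:**
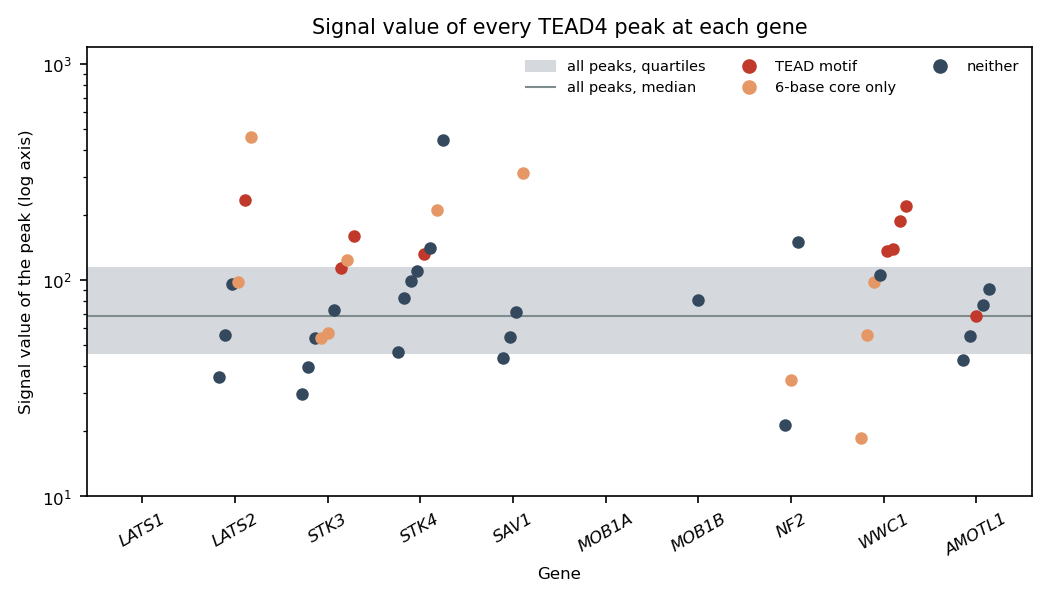
Signal value of every peak (vertical axis, logarithmic) for each of the 10 genes; points are peaks, coloured by motif, the grey band spans the quartiles of all 21113 peaks (46.1 to 113.6) and the line their median (68.1). The 4 strongest peaks of WWC1 hold the TEAD motif, while the strongest of LATS2, STK4 and SAV1, at 313.9 and higher, do not.

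Over the 44 peaks, the median signal value was 86.9 (95% interval from order statistics 57.3 to 110.7, which covers sampling of peaks only). The median of the whole list, 68.1, lay inside this interval. Of the 44 peaks, 28 were above the list median, 6 in the upper 10% and 3 in the upper 5%. Most lay inside the genes: 29 in introns, 1 in an exon of the gene, 9 upstream and 5 downstream. A summit within 2.5 kb of a TSS was found at 4 of the 10 genes (LATS2, STK3, SAV1 and WWC1), against 16.6% of all protein-coding genes, and for 6 of the 44 peaks. Any annotated TSS counted, of which STK3 had 19, WWC1 16, SAV1 6 and LATS2 2. The summit at STK3 was 57.6 kb from the canonical TSS. The comparison with 16.6% was not matched for the number of TSSs per gene and was not tested. Of the 44 summits, 23 were more than 10 kb from any TSS of their gene. The assignment rule takes in every summit of a gene body, and these genes are long. No shares over all peaks are given for place or for this distance, so these counts describe the 44 peaks only. The nearest protein-coding TSS belonged to the cascade gene for 39 peaks and to another gene for 5, those named at STK3 and STK4.

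The TEAD motif ACATTCC was present in 9 of the 44 peaks (20.5%, Wilson 95% interval 11.2 to 34.5%) and in 22.97% of all peaks, and the core CATTCC in 20 (45.5%, interval 31.7 to 59.9%) against 46.8% of all peaks. Equally wide windows placed 2000 bp away from each summit, on both sides, held them in 2.82% and 10.6% of cases. The cascade genes' shares thus lay near those of the whole list. The AP-1 motif, bound by JUN and FOS proteins, was found in 5 of the 44 peaks (11.4%, interval 4.95 to 24.0%) and in 25.4% of all peaks (interval 24.8 to 26.0%), with 3.43% in the flanking windows. These were 1 peak at LATS2, 2 at STK3, 1 at STK4 and 1 at AMOTL1. No peak of the group held both motifs and 30 held neither. No share of the whole list is given for both or for neither, so these counts describe the 44 peaks only. Peaks of 1 gene are neighbours on the chromosome and not independent, the intervals cover counting error only, and the difference in AP-1 share was not tested. The 9 peaks with the TEAD motif had signal values from 68.2 to 236.0 (median 139.9), and the 35 without it had a median of 73.2. The 9 were 111 to 333 bp wide, and no peak of the most common width, 444 bp, held the motif. No signal value by motif is given for all peaks, so this difference describes the 44 peaks only and was not tested.

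**Figure D3:**
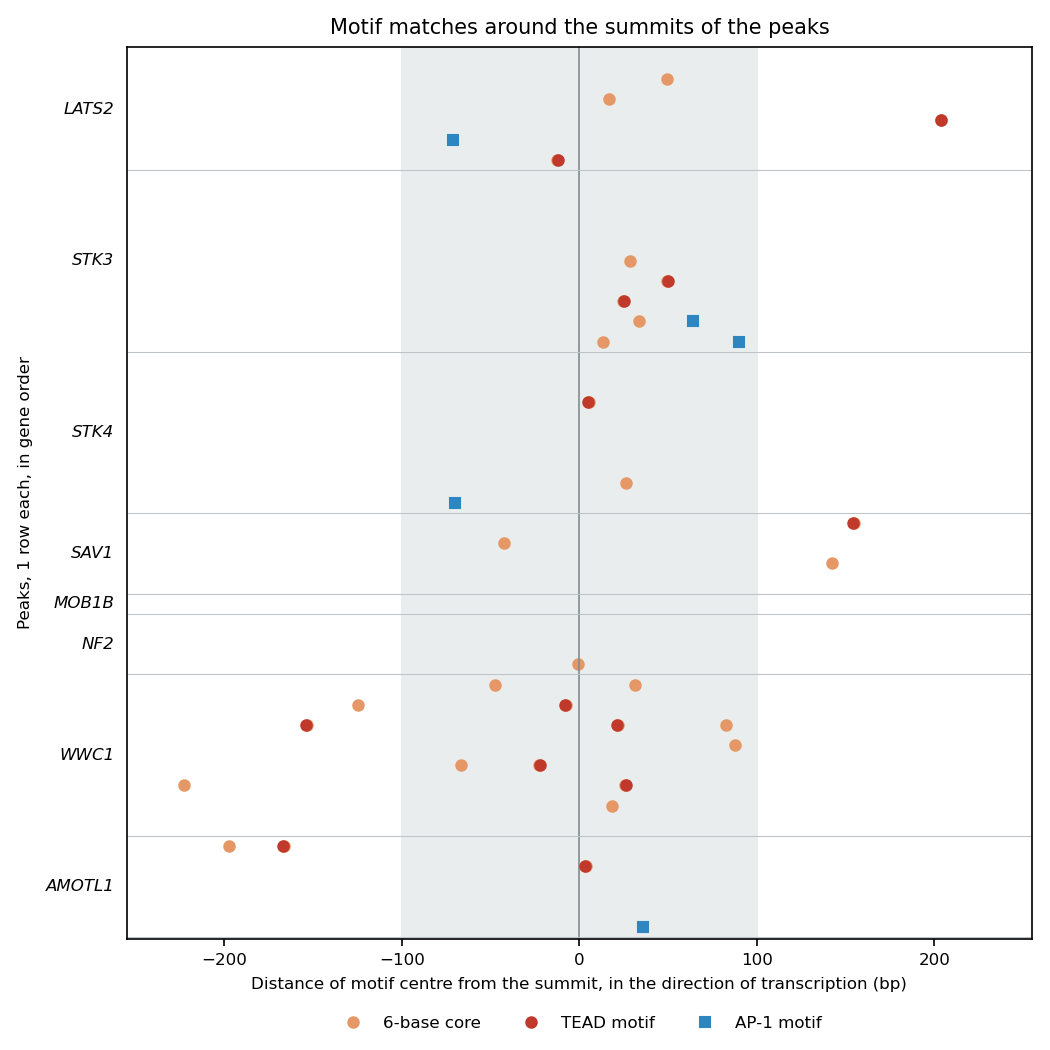
Distance of each motif match from the summit (horizontal axis, bp, in the direction of transcription) for the 44 peaks (rows, grouped by gene); red circles are TEAD motifs, orange circles the 6-base core, blue squares AP-1 motifs, and the grey band marks the 100 bp to either side that counted as a match. The 9 TEAD motifs inside the band have their centres 3 to 50 bp from the summit, and the 5 AP-1 motifs have theirs 36 to 90 bp from it.

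Other genes of the pathway were read by the same rule, as lists that describe the setting of the cascade genes. Their counts stand beside the 56.2% of all protein-coding genes with a peak and the median of 0.666 peaks per 100 kb. Of their paralogues, all 6 had a peak, with a median of 2.5 peaks per gene and 1.72 per 100 kb. AMOTL2, an angiomotin family protein like AMOTL1 and a known target of YAP1, had 8 peaks and 7.36 per 100 kb (percentile 99.7), with signal values up to 765.3, and the strongest within 1 kb of a TSS was 733.1. The highest value at AMOTL1 was 91.0, and at AMOT, named here after its values were seen, 1 peak had 119.5. The families thus held members with a strong promoter peak (LATS2, AMOTL2) beside members without one (LATS1, AMOTL1). WWC2 had 5 peaks, the strongest (232.0) within 1 kb of a TSS, and WWC3 had 3, up to 125.1, while WWC1 had 8, up to 219.7.

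Of the coactivators, TEAD factors and VGLL cofactors on which the cascade acts, 7 of 10 had a peak, with a median of 3 peaks per gene and 1.32 per 100 kb. The most were at VGLL3 (10), WWTR1 (7) and TEAD1 (5). Of other kinases that activate LATS, 9 of 10 had a peak, with a median of 1.5 peaks per gene and 0.880 per 100 kb, and the most were at TNIK (13), MAP4K1 (4, up to 358.9) and TAOK3 (4). Among cell surface and polarity proteins upstream of the cascade, 19 of 22 had a peak, with a median of 3.5 peaks per gene and 1.83 per 100 kb. FRMD6, a FERM domain protein related to NF2, had 17 peaks, one of 363.0 within 1 kb of a TSS. FAT3, an atypical cadherin, had 15, and TJP1, the tight junction protein ZO-1, had 13, up to 531.0. In the RASSF, Ajuba and STRIPAK list, whose proteins bind or inhibit the kinases, 14 of 19 had a peak, with a median of 1 peak per gene and 0.992 per 100 kb. AJUBA and LIMD1, LIM proteins that hold LATS kinases inactive at junctions, had 7 (up to 556.9) and 6 peaks, and SLMAP, which links STRIPAK to STK3 and STK4, had 4.

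A list of genes widely used as readouts of YAP1 and TEAD activity, which includes LATS2, AMOTL2, AJUBA, FJX1 and PTPN14 from the other lists, served as a reference for genes with known regulation. Of these 20 of 22 had a peak, with a median of 6 peaks per gene and 3.89 per 100 kb, and the most were at CRIM1 (24), RBMS3 (16) and ASAP1 (13). The cascade genes, at 2.00 per 100 kb, lay between this list and the median of all protein-coding genes. Their median counts the overlapping peaks of NF2 separately and is lower with them merged. LATS2 (4.33) and STK4 (4.05) were above the median of the target list, and the other 8 genes were below it. When only peaks with the gene itself as the nearest protein-coding gene were counted, the median of the target list was 3.84, LATS2 stayed at 4.33 and STK4, at 2.53, was below it. Counted in this way the median was 2.00 per 100 kb for the cascade genes and 0 for all protein-coding genes. Only 32.8% of protein-coding genes had a peak by this count, so their median could only be 0. The median was 1.32 for the coactivators and TEAD factors, 1.20 for cell surface and polarity proteins, 0.981 for the paralogues, 0.416 for the RASSF, Ajuba and STRIPAK list and 0.397 for the other kinases. The median signal value of the peaks was 85.8 for the target list and 86.9 for the cascade genes.

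**Figure D4:**
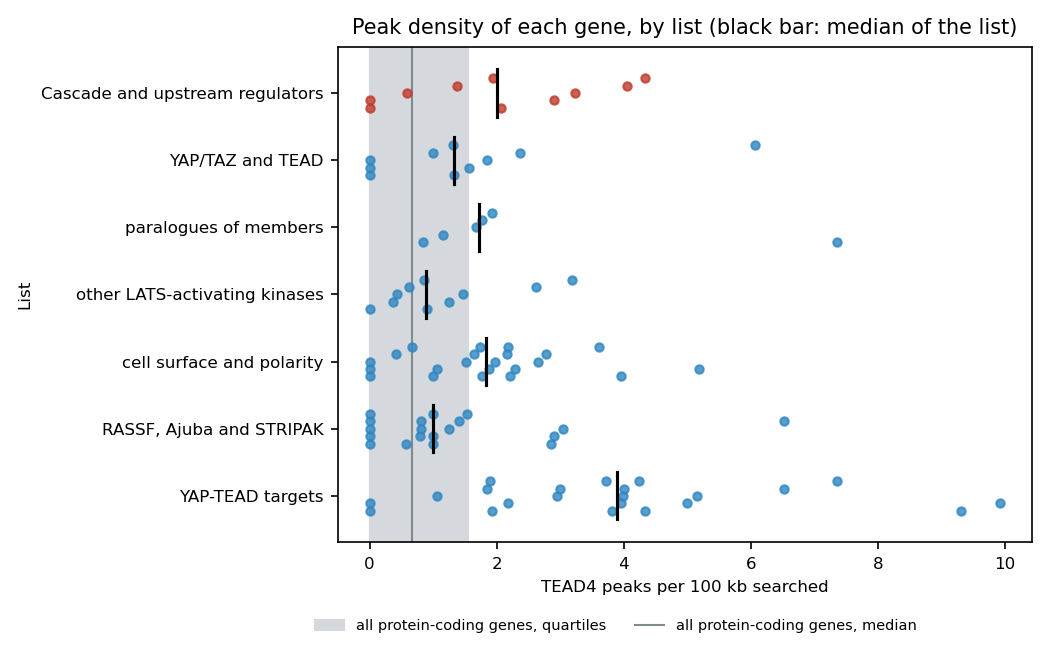
TEAD4 peaks per 100 kb searched (horizontal axis) for each gene of 7 lists; points are genes, black bars list medians, and the grey band and line give the quartiles (0 to 1.55) and median (0.666) of all 20033 protein-coding genes. The cascade genes spread from 0 to 4.33, with a median of 2.00, and the target genes have a median of 3.89.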

How the data were processed

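TEAD4 ChIP-seq reads of LX-2 cells were mapped by the authors to hg38 with Chromap, and the ENCODE pipeline for the irreproducible discovery rate (IDR) was applied to 3 replicates, of which replicates 1 and 3 were kept and replicate 2 was left out as not concordant. Their deposited list has 10 columns: the position of each peak, a scaled IDR score (830 to 1000), the peak caller's signal value (6.57 to 1074), a −log10 q-value and the offset of the summit. These meanings were read by layout and values; the peak caller is not given in the sources used here. Genes came from GENCODE release 44 on hg38, promoters from RefSeq. Lengths searched were the union of gene body and 50 kb around each TSS. A motif counted when it lay, on either strand, wholly within 100 bp of a summit. Intervals of shares are Wilson 95% intervals. Counting and motif steps were tested on simulated data. All 10 cascade genes were named, and from each other list the 3 genes with the most peaks (ties by signal value). The members, lists and alternatives were chosen with earlier results of these data known. Sequences of STK3 (chromosome 8), SAV1, MOB1B and exons are not reported here, apart from 1 exon site. Python 3.11.15, numpy 2.4.6, pandas 2.3.3, scipy 1.17.1 and matplotlib 3.10.9 were used.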

Additional observations from a re-analysis of the deposited data

How the results depend on the processing

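Over 15 counts, shares and medians, 168 alternative values were computed, and 137 stayed within 1.5 times the count or within the 95% interval. These 137 include cases in which LATS1 or MOB1A stayed without a peak, which alternatives that only remove peaks could not change. They also include the limit on the q-value, at 0.05, which removed none of the peaks at the 10 genes. Part of the tally was thus fixed in advance. At least 1 peak was found at 8 of the 10 genes under all alternatives except 2: with only summits within 2.5 kb of a TSS there were 4 genes and 6 peaks, and at 100 kb 9 genes, LATS1 gaining 1 peak. Above the median signal value 28 peaks were left, with a median signal value of 119.3 by construction. The core CATTCC raised the motif share to 45.5%. The share of all protein-coding genes with a peak was 34.0% at 10 kb, 72.0% at 100 kb, 24.97% with the gene body only, 16.6% within 2.5 kb, 53.2% with 1 TSS per gene, 48.7% with the highest IDR score only, 38.8% above the median signal value and 32.8% where the gene had the nearest TSS. The number of peaks per gene stayed within 1.5 times in 92 of 110 cases, among them the same cases of LATS1, MOB1A and the q-value. With the gene body only it fell from 6 to 3 at LATS2, from 4 to 1 at SAV1 and from 8 to 5 at STK4, and at 100 kb SAV1 had 7. Where the gene had to have the nearest TSS, STK4 had 5 peaks, and its density, an alternative chosen after seeing the data, was 2.53 in place of 4.05 per 100 kb. Above the median signal value STK3 had 4 peaks, AMOTL1 3, SAV1 2 and NF2 1. Within 2.5 kb of a TSS, WWC1 had 3 peaks, LATS2, STK3 and SAV1 1 each, and STK4, MOB1B, NF2 and AMOTL1 none. MOB1A had no peak under any alternative. No paired analysis was possible because replicates 1 and 3 were merged into 1 list, which also prevented leaving either out. Read depth at the peaks is unknown, so the smallest detectable binding at LATS1 and MOB1A could not be given.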

Other observations

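Several of the peaks at the cascade genes stood close together. Summits of neighbouring peaks were 0.201 kb apart inside NF2, 1.15 kb apart at the 3′ end of STK3, 1595 and 2942 bp apart inside STK4, 2.16 kb apart upstream of SAV1 and 1.97 and 2.75 kb apart inside WWC1. Of the 44 peaks, 22 had the same width, 444 bp, the most common one, and 35 had the highest IDR score. Over all 21113 peaks the median and the upper quartile of width were also 444 bp, so this width was common throughout the list. No share of the whole list is given for the IDR score, so the count of 35 describes these peaks only. The 9 peaks with a lower IDR score were found at LATS2, STK3, STK4, SAV1, NF2, WWC1 and AMOTL1.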
